A study of Homo sapiens with 42 samples.

Results

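The comparison described here is that of the RS411 cell line carrying the short hairpin RNA sh2 with the same line carrying a non-targeting hairpin (NT), with 3 libraries in each arm. Its 6 libraries were chosen by their titles, RS411 NT1 to NT3 and RS411 sh2-1 to sh2-3, out of 42 in the series, and libraries with the same number were treated as pairs. The series measured gene expression by RNA sequencing in 5 B-cell acute lymphoblastic leukemia lines, with NSD2 or its mutant form overexpressed in Reh and 697 and knocked down in RS411, RCH and SEM. RS411 is the line RS4;11, which was started from bone marrow and carries a KMT2A::AFF1 fusion. NT is a hairpin with no target gene and sh2 is the hairpin described as lowering NSD2. A further RS411 arm titled sh5, also of 3 libraries, is used for comparison. Its libraries also entered the main fit of sh2 against NT and the estimate of spread in it. The NT and sh2 arms of SEM and RCH are used only for comparison. How the hairpins were delivered, whether cells were selected, and whether each arm was 1 clone are not stated in the labels. The labels do not say whether the 3 libraries of an arm were grown as separate cultures, and every p value therefore rests on a spread between libraries that may be only technical.

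NSD2 (listed as WHSC1 in the count table) is a histone methyltransferase that places the dimethyl mark on lysine 36 of histone H3. That mark lies over transcribed and intergenic chromatin and opposes the spread of the Polycomb mark on lysine 27 of the same histone. Gain-of-function mutations of NSD2 recur in childhood B-cell leukemia, and loss of the enzyme is studied there for its effect on gene expression and drug response.

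Between 27826387 and 67796769 reads per library were assigned to genes in the NT and sh2 arms, the lowest total belonging to NT replicate 3 and the highest to sh2 replicate 1. Levels are CPM, each gene's share of the reads of its library scaled to a common total, with library sizes adjusted by trimmed mean of M values. Genes used by this cell type were present in all 6 libraries. CD79A ran from 232 to 287 CPM, PAX5 from 404 to 478 and EBF1 from 244 to 279.8. Among genes typical of KMT2A-rearranged leukemia, HOXA9 ran from 38.9 to 50.2 CPM, MEIS1 from 205 to 264 and LAMP5 from 164 to 208. MME, which encodes CD10 and is usually low in this leukemia, ran from 1.65 to 3.27 CPM. Summed over 50 cytosolic ribosomal protein genes, levels ran from 59050 to 65269 CPM, and mitochondrially encoded transcripts took 0.105% to 0.206% of reads.

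NSD2 itself was lower in every sh2 library than in any NT library, but by an uneven amount. It stood at 289, 329 and 305 CPM in NT replicates 1 to 3 and at 155, 157 and 254 CPM in sh2 replicates 1 to 3. Each sh2 library held 53.7%, 47.8% and 83.2% of the level in the NT library with the same number, so that sh2 replicate 3 kept most of its NSD2 transcript. The log2 fold change was -0.75 ± 0.18 (SE). Its adjusted p was 0.0585 by edgeR's quasi-likelihood test with Benjamini-Hochberg adjustment over 17165 genes, which does not pass the threshold of 0.05. With the NT and sh2 libraries alone, without sh5, the adjusted p was 0.123 by the same test. The two-sided exact permutation test of 3 against 3 libraries gave p = 0.1, the smallest value it allows. Without sh2 replicate 3 the log2 fold change was -0.90 with an adjusted p of 0.00527, and without NT replicate 3 it was -0.93 with an adjusted p of 0.000144. In a bulk library, fewer cells carrying the hairpin and less NSD2 RNA per cell cannot be told apart.

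The other members of the NSD2 enzyme family did not pass the test in this comparison. NSD1 gave a log2 fold change of 0.07 ± 0.05 (adjusted p = 0.369) and NSD3 one of -0.01 ± 0.05 (adjusted p = 0.908). SETD2, which places the trimethyl mark on the same lysine, gave 0.08 ± 0.05 (adjusted p = 0.339). EZH2, the catalytic subunit of the Polycomb complex PRC2, gave -0.12 ± 0.05 (adjusted p = 0.117).

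Across the transcriptome, 2495 of 17165 genes tested differed between sh2 and NT at an adjusted p under 0.05, which is 14.5%. Of these, 1323 were higher with sh2 (7.71% of genes tested) and 1172 were lower (6.83%). Upper-quartile scaling gave 758 higher and 1421 lower, and a filter of at least 1 CPM in 3 libraries gave 1004 and 1112. The NT and sh2 libraries alone, without sh5, gave 643 and 657, or 1300 genes in all. Most changes were small, with a median size of 0.41 on the log2 scale. Large changes lay among genes of low level. Of 151 genes that rose and 372 that fell by at least 2-fold, 125 and 341 had a mean under 5 CPM. Among 10210 genes with a mean of 5 CPM or more, 26 rose and 31 fell by at least 2-fold. The libraries of the arms did not overlap for 1803 of the 2495 genes, against 21.5% of all genes tested. Of the 2495 genes, 2483 had the same sign in all 3 pairs. A test that uses the pairs favours such genes, and the share over all genes was not counted.

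**Figure D1:**
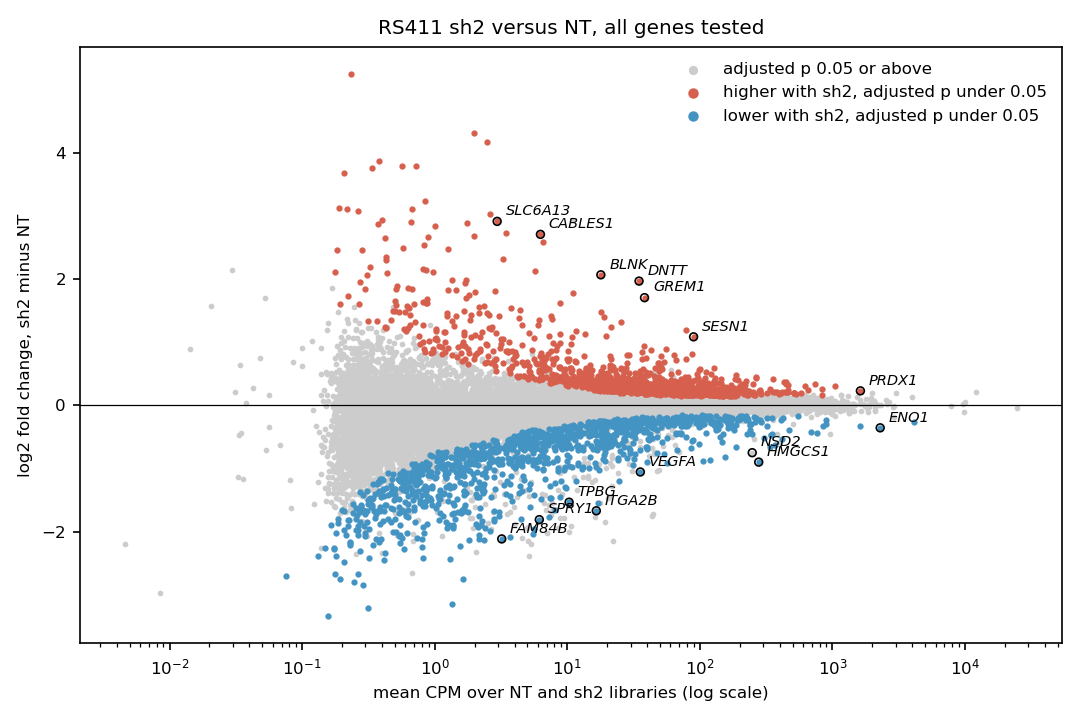
Log2 fold change of sh2 over NT (vertical axis) against the mean CPM over the 6 libraries (horizontal axis, log scale) for 17165 genes, 1 point per gene, in red for the 1323 genes higher and in blue for the 1172 genes lower with sh2 at an adjusted p under 0.05. Circled genes are named in the text; NSD2 lies at -0.75 and is not among the coloured points.

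The difference was not of the same size in the 3 pairs. Replicate 3, the pair with the smallest loss of NSD2, was the pair with the smallest difference for 81.6% of the genes called higher and 78.2% of those called lower, and for 51.8% of all genes tested. Whether the 2 observations are linked was not tested. Over the genes called higher, the median log2 ratio within a pair was 0.35, 0.37 and 0.17 in replicates 1, 2 and 3. Over the genes called lower it was -0.60, -0.68 and -0.30. Without sh2 replicate 3, 3440 genes were called. Leaving out another library gave 731 calls (without NT replicate 1), 773 (without NT replicate 2), 1246 (without sh2 replicate 1) or 1260 (without sh2 replicate 2), and the fit without pairing gave 286.

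Among genes reaching 5 CPM whose arms did not overlap, the 10 highest fold changes belonged to SLC6A13, ZBTB46, CABLES1, WNT8A, TNFRSF25, DUSP6, BLNK, DNTT, ANGPT1 and GREM1. SLC6A13, a GABA transporter, was close to absent with NT at 0.693, 0.277 and 1.20 CPM and reached 6.36, 3.35 and 5.86 CPM with sh2. The log2 fold change was 2.92 ± 0.23 (adjusted p = 2.25e-06), the largest in the group. CABLES1, an adaptor of cyclin-dependent kinases, went from 1.55, 1.28 and 2.19 CPM to 15.3, 8.10 and 9.20 CPM. Every sh2 library was well above every NT library, and the log2 fold change was 2.71 ± 0.25 (adjusted p = 0.000472). ZBTB46, a zinc finger factor best known from dendritic cells, stood at 0.970, 0.887 and 0.838 CPM with NT and 7.99, 5.54 and 4.44 CPM with sh2, a log2 fold change of 2.73 ± 0.21 (adjusted p = 1.46e-06).

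Secreted factors formed part of the group. ANGPT1, the ligand of the TIE2 receptor, rose from 4.99, 3.94 and 5.94 CPM to 19.6, 15.2 and 16.03 CPM, with a log2 fold change of 1.79 ± 0.17 (adjusted p = 0.000276). GREM1, an inhibitor of bone morphogenetic proteins, rose from 17.8, 20.04 and 14.4 CPM to 57.3, 84.7 and 35.4 CPM, with 1.71 ± 0.14 (adjusted p = 0.000646). In both genes the arms were separate, as the choice of genes required, and sh2 replicate 3 was the lowest sh2 library of GREM1. WNT8A, a WNT ligand, stood at 2.03, 1.86 and 1.75 CPM with NT and 17.3, 7.43 and 9.10 CPM with sh2, with a log2 fold change of 2.59 ± 0.37 (adjusted p = 0.0146). TNFRSF25, a death receptor of the tumor necrosis factor family, stood at 0.970, 1.16 and 1.06 CPM and 6.77, 7.12 and 2.62 CPM, with 2.33 ± 0.24 (adjusted p = 6.3e-05). In TNFRSF25 the third sh2 library was again nearest to the NT libraries.

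**Figure D2:**
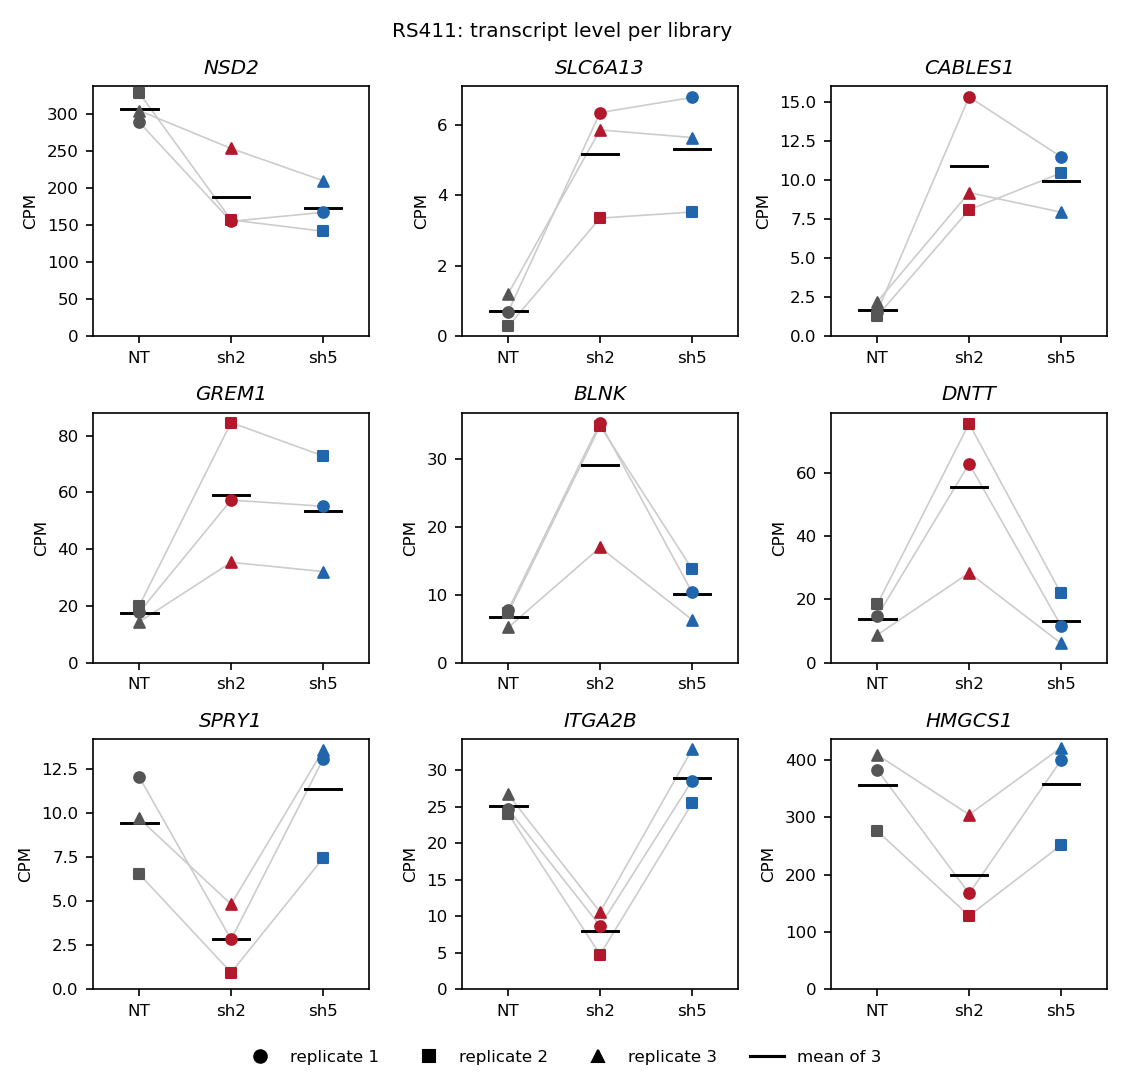
Level in CPM (vertical axes, each from 0) of 9 genes in the NT, sh2 and sh5 libraries of RS411, with grey lines joining libraries of the same replicate number and black bars at the mean of 3. BLNK and DNTT are higher in every sh2 library than in any NT or sh5 library, SPRY1 and ITGA2B are lower in every sh2 library, and SLC6A13, CABLES1 and GREM1 are higher in both hairpin arms than with NT.

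The 10 lowest fold changes under the same conditions belonged to FAM84B, STXBP5L, EXPH5, SPRY1, KIAA1324L, ITGA2B, DUSP16, AIG1, LGR4 and TPBG. ITGA2B, the alpha subunit of the platelet fibrinogen receptor, stood at 24.6, 24.03 and 26.7 CPM with NT and 8.67, 4.75 and 10.6 CPM with sh2. Its log2 fold change was -1.67 ± 0.17 (adjusted p = 0.00135). LGR4, a receptor for R-spondins that strengthens WNT signalling, stood at 24.99, 22.2 and 26.8 CPM with NT and 6.77, 4.94 and 15.8 CPM with sh2. The arms did not overlap, although sh2 replicate 3 lay between the other sh2 libraries and NT, and the log2 fold change was -1.54 ± 0.30 (adjusted p = 0.0359). TPBG, a surface glycoprotein that restrains WNT signalling, stood at 12.6, 18.05 and 14.9 CPM and 3.87, 3.54 and 8.86 CPM, with -1.53 ± 0.32 (adjusted p = 0.0368).

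FAM84B, the first of the group by fold, stood at 4.90, 5.74 and 4.56 CPM with NT and 0.823, 0.443 and 2.77 CPM with sh2. Its adjusted p was 0.0473, close to the threshold, with a log2 fold change of -2.12 ± 0.51. EXPH5, an effector of the small GTPase RAB27B, gave -1.96 ± 0.44 (adjusted p = 0.0474), and STXBP5L, a syntaxin-binding protein, gave -2.04 ± 0.40 (adjusted p = 0.0271). KIAA1324L gave -1.80 ± 0.35 (adjusted p = 0.018) and AIG1, a hydrolase of fatty acid esters, gave -1.61 ± 0.23 (adjusted p = 0.00167). All 10 were lower in every sh2 library than in any NT library, as the choice of genes required. In these 10 genes sh2 replicate 3 was the highest sh2 library in each case. Under other settings of the processing, EXPH5 was not called in 10, FAM84B and LGR4 in 9 each, and STXBP5L, KIAA1324L and TPBG in 6 each. SPRY1 was not called in 5 and DUSP16 and AIG1 in 2 each, while ITGA2B was called in all.

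Regulators of the ERK kinase pathway moved in opposite directions. DUSP6, a phosphatase that inactivates ERK and is itself induced by ERK signalling, rose from 1.87, 2.63 and 1.57 CPM to 14.4, 8.13 and 5.39 CPM, with a log2 fold change of 2.13 ± 0.41 (adjusted p = 0.0259). SPRY1, another inhibitor of the pathway, fell from 12.1, 6.54 and 9.69 CPM to 2.83, 0.949 and 4.82 CPM, with -1.81 ± 0.29 (adjusted p = 0.00974). DUSP16, a phosphatase acting mainly on the JNK and p38 kinases, fell from 12.3, 9.78 and 14.3 CPM to 3.47, 1.96 and 6.74 CPM, with -1.66 ± 0.19 (adjusted p = 0.000736). Of 32 ERK feedback inhibitors and immediate early genes tested, 6 rose (18.8%, against 7.71% of all genes) and 3 fell (9.38%, against 6.83%). The median log2 fold change was 0.01, against -0.00 over all genes, and changed sign with upper-quartile scaling. Without pairing 1 was called higher, and 2 were without NT replicate 1 and 3 without sh2 replicate 1. The 3 lower calls were lost without NT replicate 1 or 2, and 1 was left without sh2 replicate 1. FOSL2, a partner of JUN, rose in all pairs, with 0.79 ± 0.09 (adjusted p = 0.000112). FOS and EGR1 were called higher, with sh2 replicate 1 far above the other libraries. FOS stood at 16.3, 3.07 and 3.10 CPM in the sh2 libraries against 4.53, 2.16 and 1.90 CPM with NT, and EGR1 at 9.15, 1.17 and 1.58 CPM against 2.47, 0.776 and 0.984 CPM, with overlap between the arms in both genes.

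Several genes that assemble the B-cell receptor or carry its signal were higher with sh2. DNTT encodes the polymerase that adds untemplated bases at the joints of rearranging receptor genes. It stood at 14.7, 18.4 and 8.75 CPM in NT replicates 1 to 3 and at 62.9, 75.6 and 28.4 CPM in the sh2 replicates. The arms did not overlap, and the log2 fold change was 1.97 ± 0.14 (adjusted p = 0.000256). BLNK, the adaptor that links the pre-B cell receptor to its downstream kinases, stood at 7.78, 7.35 and 5.18 CPM with NT and 35.3, 34.9 and 16.97 CPM with sh2. Its log2 fold change was 2.07 ± 0.12 (adjusted p = 7.65e-07). RAG2, a subunit of the recombinase, rose from 55.6, 54.8 and 57.8 CPM to 72.9, 77.8 and 66.7 CPM, with 0.37 ± 0.06 (adjusted p = 0.00113). RAG1, the catalytic subunit, rose within every pair, from 191, 307 and 184 CPM to 304, 378 and 227 CPM, although the arms overlapped, with 0.43 ± 0.07 (adjusted p = 0.00233).

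Of 13 pre-B receptor and V(D)J recombination genes, 6 rose (46.2%, against 7.71% of all genes) and 1 fell (7.69%, against 6.83%). The median log2 fold change was 0.13. The kinases BTK and LYN, which carry the receptor signal, rose by smaller amounts, with log2 fold changes of 0.26 ± 0.05 (adjusted p = 0.00486) and 0.32 ± 0.06 (adjusted p = 0.00372). PIK3AP1, an adaptor for phosphoinositide 3-kinase, gave 0.26 ± 0.06 (adjusted p = 0.00683). VPREB3 fell, with -0.29 ± 0.06 (adjusted p = 0.00509). The surrogate light chain genes VPREB1 and IGLL1 did not pass the test, with log2 fold changes of -0.10 and -0.08. Without pairing, 1 of the 13 genes was called higher, and between 4 and 6 were called higher when single NT or sh2 libraries were left out.

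The list of B-lineage transcription factors and surface antigens was mixed, with 6 of 30 genes higher (20.0%, against 7.71% of all genes) and 2 lower (6.67%, against 6.83%). The median log2 fold change was 0.03, and it was -0.03 with upper-quartile scaling. Without pairing 3 were called higher and 1 lower, and lower calls numbered 1 without NT replicate 1 and 4 without sh2 replicate 1. IRF8, a factor of B-cell and myeloid development, stood at 31.3, 29.05 and 30.3 CPM with NT and 63.6, 60.8 and 43.2 CPM with sh2, with 0.87 ± 0.09 (adjusted p = 0.000211). ETV6 and BCL11A also rose, with log2 fold changes of 0.47 ± 0.08 (adjusted p = 0.0014) and 0.31 ± 0.05 (adjusted p = 0.00173). FCRLA, an intracellular relative of the Fc receptors, fell from 103, 94.7 and 117 CPM to 66.8, 65.7 and 80.6 CPM, with -0.56 ± 0.05 (adjusted p = 6.33e-06). IKZF3, which encodes Aiolos, fell within every pair, from 2.80, 1.72 and 3.86 CPM to 1.17, 1.14 and 2.03 CPM, with -0.95 ± 0.21 (adjusted p = 0.00829). PAX5, EBF1, IKZF1, CD22 and CD79A did not pass the test, and their log2 fold changes lay between -0.07 and 0.13.

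Of 19 genes of the IL7 receptor and of JAK-STAT feedback, the cytokine pathway of early B cells, 6 rose (31.6%, against 7.71% of all genes) and 1 fell (5.26%, against 6.83%), with a median of 0.16. Without pairing 1 was called higher, and higher calls numbered 2 without NT replicate 1, 2 without NT replicate 2 and 3 without sh2 replicate 1. The lower call was lost without sh2 replicate 2. STAT5A, the transcription factor activated by the IL7 receptor, rose from 28.8, 25.9 and 28.2 CPM to 52.3, 49.7 and 36.6 CPM, with 0.73 ± 0.09 (adjusted p = 0.000655). Its paralog STAT5B gave 0.19 ± 0.05 (adjusted p = 0.0212) and the receptor chain IL7R gave 0.22 ± 0.05 (adjusted p = 0.0134). SH2B3, an adaptor that restrains JAK kinases, gave 0.48 ± 0.06 (adjusted p = 0.000236). BCL6, a repressor that is opposed by STAT5 in B-cell precursors, fell, with -0.27 ± 0.05 (adjusted p = 0.00479).

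The clearest group change in the other direction was in cholesterol synthesis and uptake, where 21 of 27 genes tested fell (77.8%, against 6.83% of all genes). The median log2 fold change of the list was -0.45. None rose by edgeR or by DESeq2, and 1 was higher at an unadjusted p under 0.05. The list runs from acetyl-CoA to cholesterol and includes the factors SREBF1 and SREBF2 and their regulators SCAP and INSIG1. To show what the upstream sequences of this group share, the bases before the annotated transcription start of 4 of its members are given from RefSeq (GRCh38.p14), SREBF2 as the regulator of the pathway and the other 3 as large changes within it. Capitals mark CCAAT or its reverse complement ATTGG, the box bound by the factor NF-Y, and, in SREBF2, a match to TCACNCCAC, the core of a sterol response element. The regions are chr22:41832855-41833104 (plus strand) for SREBF2, chr4:165327419-165327668 (plus strand) for MSMO1, chr5:111512536-111512785 (minus strand) for STARD4 and chr5:43313413-43313662 (minus strand) for HMGCS1, each of 250 bases.
SREBF2: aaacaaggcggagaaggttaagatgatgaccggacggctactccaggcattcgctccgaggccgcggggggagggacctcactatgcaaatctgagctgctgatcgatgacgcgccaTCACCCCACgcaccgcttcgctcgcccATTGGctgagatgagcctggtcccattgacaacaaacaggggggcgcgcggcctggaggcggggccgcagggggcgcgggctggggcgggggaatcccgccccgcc
MSMO1: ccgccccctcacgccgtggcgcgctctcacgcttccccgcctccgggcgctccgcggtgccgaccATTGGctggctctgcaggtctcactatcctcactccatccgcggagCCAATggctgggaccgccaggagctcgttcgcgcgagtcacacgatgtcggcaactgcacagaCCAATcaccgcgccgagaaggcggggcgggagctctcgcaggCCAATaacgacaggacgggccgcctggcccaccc
STARD4: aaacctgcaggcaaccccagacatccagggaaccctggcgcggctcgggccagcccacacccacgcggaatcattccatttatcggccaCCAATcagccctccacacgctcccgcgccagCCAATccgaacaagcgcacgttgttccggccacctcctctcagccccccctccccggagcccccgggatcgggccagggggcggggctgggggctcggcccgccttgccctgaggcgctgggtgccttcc
HMGCS1: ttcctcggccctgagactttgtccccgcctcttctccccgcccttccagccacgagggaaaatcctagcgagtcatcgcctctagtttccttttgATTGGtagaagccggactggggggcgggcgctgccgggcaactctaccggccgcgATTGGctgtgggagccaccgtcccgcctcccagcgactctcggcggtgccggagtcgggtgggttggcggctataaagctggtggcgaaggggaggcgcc

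CCAAT occurred on either strand in 16 of the 21 genes of the list with a promoter window in that table, or 76.2%, and in 37.0% of all genes with one. MSMO1 held 4 matches, STARD4 and HMGCS1 held 2 each and SREBF2 held 1. TCACNCCAC, searched on both strands, occurred in 1 of the 21 genes (SREBF2), in 2 of 29 genes of the glycolysis and hypoxia list described next (6.90%, ALDOC and CA9) and in 1.09% of all genes. A match is a run of letters in a window and not a measured binding site.

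The genes printed above fell in every pair. SREBF2, the main transcription factor of the pathway, went from 259, 255 and 267 CPM to 176, 159 and 244 CPM, without overlap, and its log2 fold change was -0.45 ± 0.10 (adjusted p = 0.0251). STARD4, a carrier of sterols between membranes, went from 92.6, 70.2 and 85.8 CPM to 49.7, 39.1 and 66.6 CPM, with -0.71 ± 0.09 (adjusted p = 0.00142). MSMO1, a demethylating oxidase of the late pathway, went from 231, 189.6 and 267 CPM to 133, 106 and 207 CPM, with -0.66 ± 0.08 (adjusted p = 0.000944), and here sh2 replicate 3 lay above NT replicate 2. HMGCS1, a synthase of the early pathway, went from 383, 276 and 409 CPM to 167, 128 and 305 CPM, with -0.90 ± 0.19 (adjusted p = 0.0409), and its arms overlapped in the same way.

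INSIG1, the sterol-sensing retention factor that is itself a target of the pathway, stood at 430.1, 427 and 475 CPM with NT and 271, 218 and 403 CPM with sh2, with a log2 fold change of -0.62 ± 0.13 (adjusted p = 0.0218). The arms did not overlap, and the third sh2 library was the highest of its arm. SQLE, squalene epoxidase, gave -0.66 ± 0.14 (adjusted p = 0.0306), and LSS, the cyclase after it, gave -0.62 ± 0.11 (adjusted p = 0.0139). The escort protein SCAP did not pass the test and had a log2 fold change of 0.14 ± 0.05. DHCR7, the last reductase of the pathway, had -0.67 ± 0.19 (adjusted p = 0.0842).

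The lower level held in each pair, with 25, 25 and 26 of the 27 genes below their NT partner in replicates 1, 2 and 3 and median log2 ratios of -0.48, -0.67 and -0.22. Replicate 3 was the smallest difference for 22 of them. ABCA1 and ABCG1, which export sterols and are induced when sterols are plentiful, rose, with log2 fold changes of 0.94 ± 0.24 (adjusted p = 0.0362) and 1.01 ± 0.29 (adjusted p = 0.0308). They belong to a list of 16 ABC transporters of which 4 rose (against 7.71% of all genes) and 2 fell (against 6.83%), with a median of -0.12. In that list edgeR without pairing called 0 higher (4 at an unadjusted p under 0.05, and 3 by DESeq2 with pairing) and 1 lower, and higher calls numbered 1 without NT replicate 1 and 2 without NT replicate 2, sh2 replicate 1 or sh2 replicate 2, while lower calls numbered 4 without replicate 3 of either arm and 1 without any other library. ABCA1 stood at 13.8, 15.3 and 4.49 CPM in the sh2 libraries and at 5.82, 6.04 and 4.48 CPM with NT, so that replicate 3 was level with its partner. The call on the cholesterol list rests on the pairing: without it, edgeR called 0 of the 27 genes lower, with 12 lower at an unadjusted p under 0.05 and a median of -0.43. DESeq2 with the pairing called 23 lower. Leaving out NT replicate 1 or 2 gave 12 or 11 genes, and leaving out sh2 replicate 1 or 2 gave 11 or 12.

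Glycolysis and hypoxia genes formed the second group that was mostly lower, with a median of -0.22. Of 30 genes, 13 were called lower (43.3%, against 6.83% of all genes) and 1 higher (3.33%, against 7.71%). The fall was uneven between pairs, with 17, 23 and 27 of the 30 below their NT partner in replicates 1, 2 and 3. The median log2 ratios were -0.12, -0.33 and -0.19. Replicate 1 was the smallest difference for 14 genes, replicate 2 for 4 and replicate 3 for 12. The upstream sequences of LDHA and ALDOC are shown because their enzymes are among those that fell and both hold the letters ACGTG, the core that hypoxia-inducible factors bind and that is also part of the E-box CACGTG. Capitals mark ACGTG and its reverse complement CACGT, and the match to TCACNCCAC in ALDOC is left in lower case. The windows are from RefSeq (GRCh38.p14) at chr11:18394313-18394562 (plus strand) for LDHA and chr17:28576896-28577145 (minus strand) for ALDOC.
LDHA: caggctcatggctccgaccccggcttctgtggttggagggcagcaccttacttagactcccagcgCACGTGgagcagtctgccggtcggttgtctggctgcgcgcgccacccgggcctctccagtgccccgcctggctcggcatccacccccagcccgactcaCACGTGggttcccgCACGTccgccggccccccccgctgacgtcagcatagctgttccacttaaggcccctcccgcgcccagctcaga
ALDOC: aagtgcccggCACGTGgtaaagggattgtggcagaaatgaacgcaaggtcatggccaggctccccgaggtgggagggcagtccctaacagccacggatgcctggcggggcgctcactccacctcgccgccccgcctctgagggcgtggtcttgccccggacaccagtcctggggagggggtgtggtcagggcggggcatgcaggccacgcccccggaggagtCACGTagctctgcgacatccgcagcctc

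ACGTG occurred on either strand in 19 of the 29 genes of the list with a window, or 65.5%, against 21.7% of all genes and 5 of the 21 cholesterol genes. A CACGTG run holds the letters on both strands and counts 2 times, so that LDHA held 5 matches and ALDOC 3. CCAAT occurred in 12 of the 29 glycolysis and hypoxia genes.

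Glycolytic enzymes were among the most abundant called genes whose arms did not overlap. ENO1, an enolase, stood at 2372, 2701 and 2638 CPM with NT and 1991, 1829 and 2219 CPM with sh2, with a log2 fold change of -0.35 ± 0.07 (adjusted p = 0.00314). PKM, pyruvate kinase, stood at 1696, 1835 and 1889.9 CPM and 1358, 1334 and 1646 CPM, with -0.32 ± 0.07 (adjusted p = 0.0044), and PGK1, phosphoglycerate kinase, gave -0.22 ± 0.06 (adjusted p = 0.022). In these 3 genes every sh2 library was below every NT library, as the choice of the most abundant genes required. LDHA, lactate dehydrogenase, went from 880.4, 598 and 874 CPM to 596, 458 and 705 CPM, with -0.42 ± 0.06 (adjusted p = 0.000409). The arms of LDHA overlapped because NT replicate 2 was low, whereas each pair showed the fall. TPI1, triosephosphate isomerase, gave -0.43 ± 0.08 (adjusted p = 0.00649), and ALDOC, a brain-type aldolase, went from 157, 266 and 179 CPM to 116, 117 and 99.6 CPM, with -0.82 ± 0.15 (adjusted p = 0.026).

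VEGFA, the endothelial growth factor induced by hypoxia, had the largest fall of the list. It stood at 48.9, 45.3 and 48.7 CPM with NT and 25.5, 15.5 and 29.5 CPM with sh2, with a log2 fold change of -1.05 ± 0.14 (adjusted p = 0.00399). PDK1, a kinase that inhibits pyruvate dehydrogenase, and BNIP3L, a receptor of mitophagy, gave -0.40 ± 0.07 (adjusted p = 0.00143) and -0.30 ± 0.07 (adjusted p = 0.00731). ENO2, the neuronal enolase, rose, with 1.23 ± 0.29 (adjusted p = 0.0166), mainly through sh2 replicate 1 at 7.06 CPM. The glucose transporter SLC2A1 and the factor HIF1A did not pass the test, with log2 fold changes of -0.03 and 0.04. Without pairing, edgeR called 0 of the 30 genes lower, with 9 lower at an unadjusted p under 0.05, and DESeq2 with the pairing called 16. The count was 5 without NT replicate 2 and 8 without sh2 replicate 2.

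**Figure D3:**
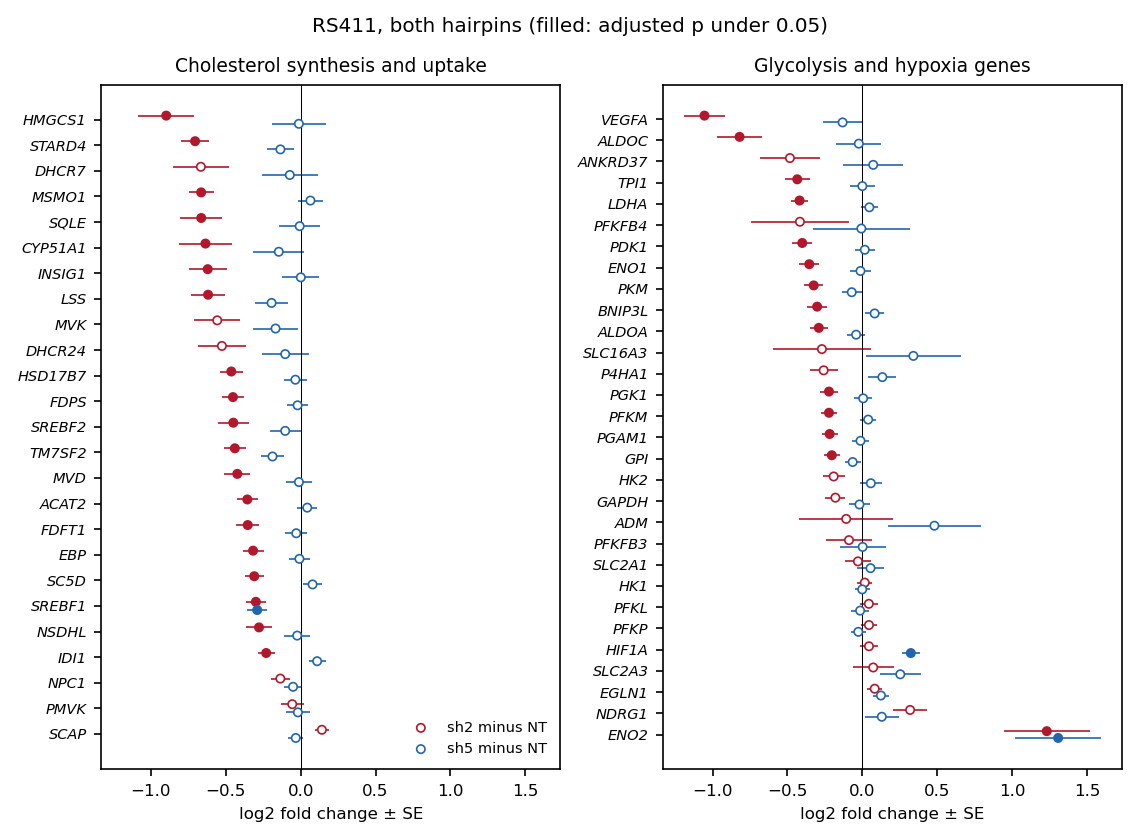
Log2 fold change with its standard error (horizontal axes) of tested members of the cholesterol list (25 of 27 genes are drawn) and of the glycolysis and hypoxia list (30 genes) in RS411, for sh2 over NT in red and sh5 over NT in blue, filled where the adjusted p is under 0.05. Of the cholesterol genes drawn, all but SCAP have a sh2 value below 0, while the sh5 values scatter around 0, with a median over the 27 genes of -0.02.

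The other 2 of the 5 most abundant called genes whose arms did not overlap were higher with sh2. PRDX1, a peroxidase of the thioredoxin system, went from 1440.5, 1374 and 1677 CPM to 1749, 1716 and 1794 CPM, with 0.23 ± 0.06 (adjusted p = 0.0208). UBASH3B, a phosphatase that dampens tyrosine kinase receptors, went from 945, 864 and 986 CPM to 1155, 1210.2 and 1075 CPM, with 0.30 ± 0.06 (adjusted p = 0.00629). PRDX1 was not called in 8 other settings of the processing, upper-quartile scaling among them, and UBASH3B in 3.

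Of 25 p53 target genes tested, 7 rose (28.0%, against 7.71% of all genes), with a median log2 fold change of 0.11. None fell by edgeR, by DESeq2 or at an unadjusted p under 0.05. SESN1, a stress-induced inhibitor of the growth kinase mTORC1, stood at 53.5, 60.5 and 56.5 CPM with NT and 129.6, 146 and 92.03 CPM with sh2, with 1.09 ± 0.12 (adjusted p = 0.00336). TP53INP1, which promotes p53-dependent death, stood at 4.07, 3.96 and 2.51 CPM and 7.88, 10.8 and 4.35 CPM, with 1.08 ± 0.14 (adjusted p = 0.000322). ZMAT3, an RNA-binding protein, and PHLDA3, an inhibitor of AKT, gave 0.85 ± 0.14 (adjusted p = 0.0116) and 0.84 ± 0.17 (adjusted p = 0.00395). CDKN1A, the p21 inhibitor of the cell cycle, rose by less, with 0.20 ± 0.06 (adjusted p = 0.0489) and overlapping arms, and MDM2, which degrades p53, did not pass the test at -0.01 ± 0.06 (adjusted p = 0.925). Without pairing, 4 of the 25 were called higher.

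Several lists of drug response and survival genes held 5 calls or fewer. Of 20 BCL2 family and death receptor genes, 3 rose (15.0%) and none fell by edgeR, by DESeq2 or at an unadjusted p under 0.05. BCL2, the survival protein, went from 411, 412 and 419.9 CPM to 463, 546 and 445 CPM, with 0.22 ± 0.06 (adjusted p = 0.0233). Of 18 glucocorticoid receptor and response genes, 4 rose (22.2%) and none fell by edgeR (2 were lower at an unadjusted p under 0.05, and 1 by DESeq2). Among the 4 were the coactivator NCOA3 (0.25 ± 0.05 (adjusted p = 0.0045)) and the NF-kappaB inhibitor NFKBIA (0.26 ± 0.06 (adjusted p = 0.00666)). Among 28 genes that handle thiopurines, cytarabine and antifolates, 2 rose (7.14%) and 3 fell (10.7%), the largest being the nucleoside transporter SLC29A2 with -0.55 ± 0.09 (adjusted p = 0.0019). Of 26 mismatch repair and break signalling genes, 2 rose (7.69%) and 1 fell (3.85%), with 0.21 ± 0.06 (adjusted p = 0.0202) for the kinase ATM and -0.24 ± 0.06 (adjusted p = 0.0178) for the exonuclease EXO1. The drug exporter ABCC1 rose, with 0.39 ± 0.06 (adjusted p = 0.000551), and its relative ABCC5 fell, with -0.46 ± 0.07 (adjusted p = 0.000609). The shares of the thiopurine and mismatch repair lists lie near those of all genes, 7.71% higher and 6.83% lower. In these 4 lists edgeR without pairing called 0 genes, with 0 to 4 higher and 0 to 2 lower in a list at an unadjusted p under 0.05. Leaving out any of the 6 libraries moved at least 1 of the counts by more than 1.5 times, with 0 to 4 higher in the BCL2 list, 1 to 5 in the glucocorticoid list, 0 to 2 in the thiopurine list (1 to 6 lower) and 0 to 1 in the mismatch repair list (0 to 2 lower).

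Among 35 enzymes and readers of H3K36 and H3K27 methylation, NSD2 included, 4 rose and none passed the edgeR test in the other direction, where 4 had an unadjusted p under 0.05 and DESeq2 called 1, with a median of 0.07. The 4 are 11.4% of the list, against 7.71% of all genes. JARID2, a subunit of PRC2, went from 159.6, 155 and 162 CPM to 203, 194 and 172 CPM, with 0.26 ± 0.06 (adjusted p = 0.00657). KDM2A, a demethylase of H3K36, gave 0.18 ± 0.05 (adjusted p = 0.027). Of 28 genes bound or driven by KMT2A fusions, 4 rose (14.3%) and 3 fell (10.7%), with a median of 0.02 that was -0.03 with upper-quartile scaling. FLT3, a receptor tyrosine kinase, rose from 362, 398 and 373 CPM to 516, 529 and 431 CPM, with 0.38 ± 0.06 (adjusted p = 0.00141). CSPG4, the NG2 antigen used to recognise this leukemia, fell from 205, 197 and 209.7 CPM to 135, 154 and 180.2 CPM, with -0.39 ± 0.08 (adjusted p = 0.00665). ZNF521, a zinc finger factor of early progenitors, fell from 4.62, 3.88 and 4.34 CPM to 0.867, 0.823 and 2.36 CPM, with -1.81 ± 0.26 (adjusted p = 0.00119), and EYA1 fell within every pair, with -1.32 ± 0.16 (adjusted p = 0.000169). HOXA9, HOXA10 and MEIS1 did not pass the test, with log2 fold changes of -0.01, 0.14 and -0.01. Without pairing edgeR called 0 genes in either list, with 4 and 5 higher and 1 and 3 lower at an unadjusted p under 0.05. The 4 higher calls of the H3K36 and H3K27 list were lost without NT replicate 1 or 2 and were 1 without sh2 replicate 2, and those of the KMT2A list were 2 without NT replicate 2.

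Of 21 regulators of stem and progenitor cells, 7 rose (33.3%, against 7.71% of all genes), with a median of 0.11. None fell by edgeR or DESeq2, while 2 were lower at an unadjusted p under 0.05. Without pairing 1 was called higher, and higher calls numbered 2 without NT replicate 1, 2 without NT replicate 2 and 4 without sh2 replicate 1. The 2 with the smallest adjusted p were present at very low level. GATA2 stood at 0.0462, 0.194 and 0.0364 CPM with NT and 0.688, 0.601 and 0.686 CPM with sh2, and BAALC at 0.0924, 0.388 and 0.182 CPM and 0.553, 1.49 and 0.425 CPM. FLI1 and ERG, ETS factors expressed at a higher level here, gave 0.20 ± 0.05 (adjusted p = 0.0137) and 0.17 ± 0.05 (adjusted p = 0.023).

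Of 26 integrins, selectins and homing receptors, 3 rose (11.5%) and 2 fell (7.69%), shares near those of all genes. CD44, the hyaluronan receptor, went from 74.9, 49.5 and 65.1 CPM to 125, 118 and 88.7 CPM, with 0.81 ± 0.15 (adjusted p = 0.0269). ITGA4, the alpha chain of the VCAM1 receptor VLA-4, went from 325, 293 and 296 CPM to 460.4, 419 and 351 CPM, with 0.42 ± 0.06 (adjusted p = 0.000671), and ITGB2 gave 0.52 ± 0.07 (adjusted p = 0.000322). ITGAV, the vitronectin receptor chain, fell from 31.05, 29.05 and 32.7 CPM to 13.8, 13.9 and 25.1 CPM, with -0.86 ± 0.16 (adjusted p = 0.0149), and the tetraspanin CD9 fell, with -0.32 ± 0.06 (adjusted p = 0.00306). Without pairing 1 gene of the list was called higher, and higher calls numbered 6 without NT replicate 3 and 5 without sh2 replicate 3, while lower calls numbered 1 without NT replicate 1, NT replicate 2 or sh2 replicate 2. Of 15 class I antigen presentation genes, 5 rose (33.3%, against 7.71% of all genes), with a median of 0.18. None fell by edgeR, by DESeq2 or at an unadjusted p under 0.05. The peptide transporter TAP1 gave 0.39 ± 0.07 (adjusted p = 0.00229) and the activator NLRC5 gave 0.29 ± 0.06 (adjusted p = 0.00317). Without pairing 1 was called higher, by DESeq2 with pairing 8 were, and without NT replicate 1 the count was 2 and without NT replicate 2 or sh2 replicate 1 it was 3. Of 16 class II genes, 5 rose (31.2%) and 1 fell (6.25%, against 6.83% of all genes). The protease CTSS gave 0.36 ± 0.06 (adjusted p = 0.00243) and the antigen-presenting chain HLA-DQA1 gave 0.33 ± 0.08 (adjusted p = 0.0142). The median of 0.04 was -0.01 with upper-quartile scaling. Without pairing edgeR called 0 of the 16 genes higher (5 at an unadjusted p under 0.05). Higher calls numbered 1 without NT replicate 1 or 2 and 2 without sh2 replicate 1 or 2. The lower call was not made by DESeq2 or without any 1 of the libraries other than sh2 replicate 3.

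Interferon response genes were split, with 3 of 34 higher (8.82%) and 6 lower (17.6%, or 3 by DESeq2) and a median of -0.01. The factors IRF1 and STAT2 rose, with 0.26 ± 0.05 (adjusted p = 0.0043) and 0.26 ± 0.06 (adjusted p = 0.013), while the effector genes OAS3 and DDX60 fell, with -0.46 ± 0.10 (adjusted p = 0.00509) and -0.44 ± 0.12 (adjusted p = 0.0202). ASNS, asparagine synthetase, fell from 9.89, 8.84 and 7.36 CPM to 4.91, 3.92 and 5.11 CPM, with -0.91 ± 0.13 (adjusted p = 0.000632), within an amino acid stress list of which 2 of 25 genes rose and 2 fell, or 8.0% each. The unfolded protein response list had 3 of 22 higher (13.6%) and 1 lower (4.55%), with 0.24 ± 0.05 (adjusted p = 0.00584) for its factor XBP1 and -0.30 ± 0.07 (adjusted p = 0.0145) for the ligase SYVN1. Among 29 cadherins and axon guidance genes 4 rose (13.8%) and 2 fell (6.90%), with -1.75 ± 0.30 (adjusted p = 0.00277) for the ephrin receptor EPHB6 and 0.48 ± 0.10 (adjusted p = 0.00665) for SEMA4A. Of all genes, 7.71% rose and 6.83% fell. Without pairing edgeR called 0 genes of the 4 lists higher (3 to 4 in a list at an unadjusted p under 0.05, and 3 to 4 by DESeq2 with pairing). Leaving out any of the 6 libraries moved at least 1 of the counts by more than 1.5 times, with 0 to 7 higher and 1 to 7 lower in the interferon list, 0 to 3 and 1 to 3 in the amino acid list, 0 to 3 and 0 to 1 in the unfolded protein list and 0 to 5 and 1 to 6 in the cadherin list.

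Proliferation genes showed few calls. Of 31 S phase genes 1 fell (the clamp loader RFC4, -0.23 ± 0.06 (adjusted p = 0.0154)), and none of 30 G2 and M phase genes, 51 histone genes, 50 ribosomal protein genes or 13 mitochondrial transcripts passed the test by edgeR. At an unadjusted p under 0.05 there were 1, 2, 1 and 0 genes in these lists, and DESeq2 called 0, 2, 1 and 0. Of 32 MYC and ribosome biogenesis genes, 2 rose (6.25%, against 7.71% of all genes) and 1 fell (3.12%, against 6.83%). The one that fell was TERT, the telomerase catalytic subunit, with -0.59 ± 0.09 (adjusted p = 0.00103), and MXD4, an antagonist of MYC, rose with 0.25 ± 0.06 (adjusted p = 0.0142).

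**Figure D4:**
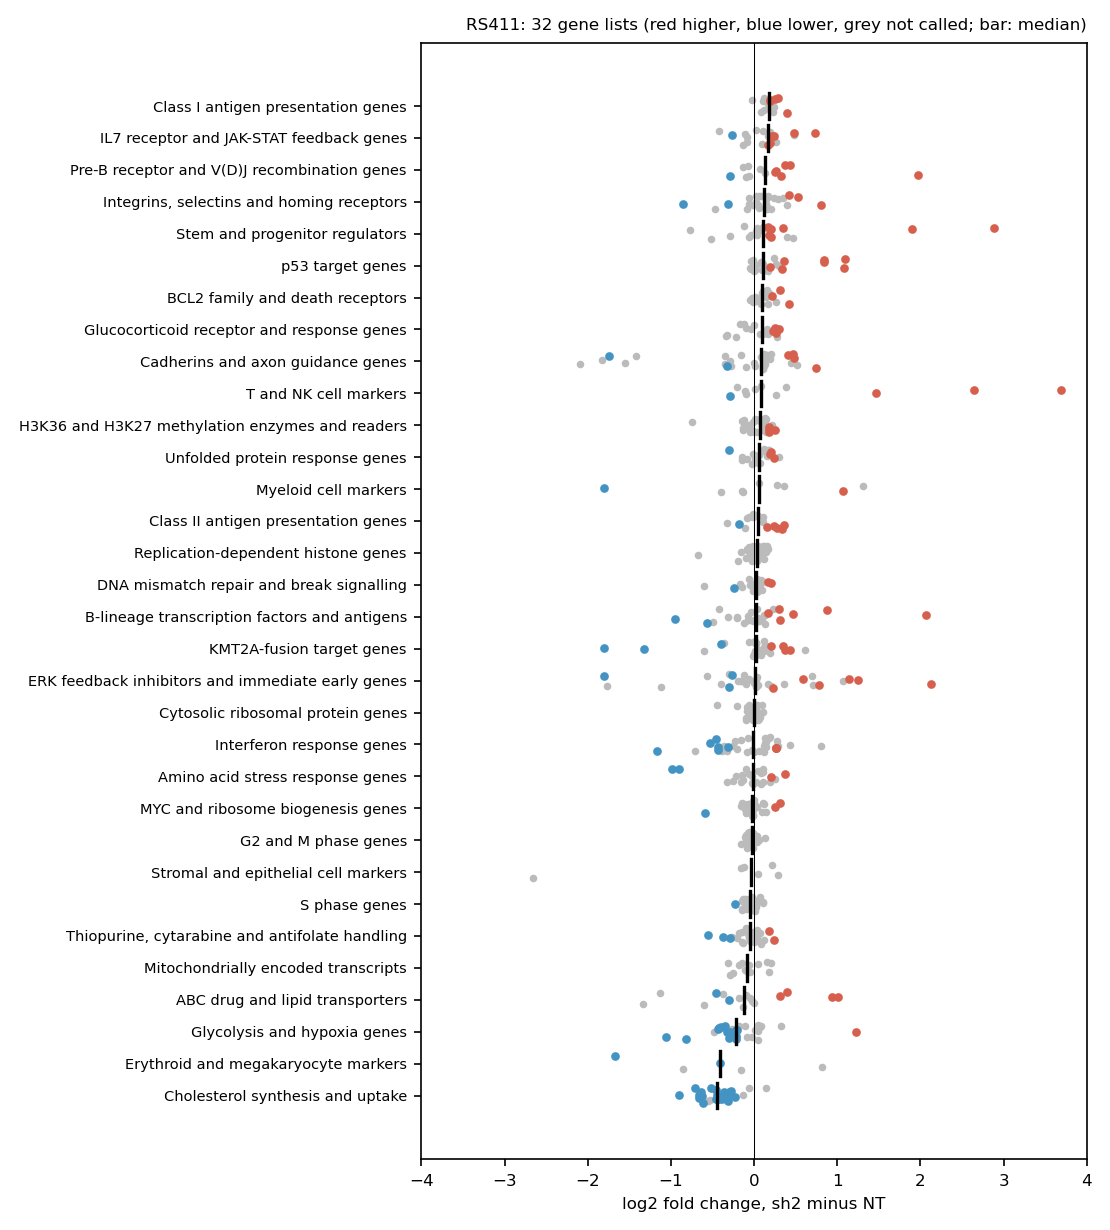
Log2 fold change of sh2 over NT (horizontal axis) for each tested member of 32 gene lists (rows, ordered by median), in red or blue where the adjusted p is under 0.05 and grey otherwise, with a black bar at the median. The cholesterol list has the lowest median, -0.45, and the class I antigen presentation list the highest, 0.18.

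Markers of other cell types were measured in the same libraries. The summed level of 20 erythroid and megakaryocyte markers was 38.0 to 42.9 CPM with NT and 15.7 to 24.1 CPM with sh2, of which ITGA2B gave 24.03 to 26.7 and 4.75 to 10.6 CPM, while GATA1, GYPB, SLC4A1, HBG1 and PF4 had 0 reads in all 6. Of 5 of these markers tested, 2 were called lower, against 6.83% of all genes. Of the 2, 1 was ITGA2B. The other was GP9, a platelet glycoprotein, with -0.41 ± 0.13 (adjusted p = 0.04), and it was not called by DESeq2, without the low-count filter, without pairing or without any 1 of the libraries other than sh2 replicate 3. The summed level of 25 myeloid markers was 70.7 to 80.6 CPM with NT and 58.0 to 72.8 CPM with sh2, with ELANE, PRTN3, S100A8, S100A9 and FCN1 at 0 reads. Of 9 tested, 1 rose (11.1%, against 7.71% of all genes) and 1 fell (11.1%, against 6.83%). LYZ, lysozyme, fell from 2.47, 1.91 and 2.11 CPM to 0.583, 0.127 and 1.35 CPM. The summed level of 28 T and NK cell markers was 637 to 671 CPM with NT and 583 to 612 CPM with sh2, with CD3G, CD5, TRBC2 and GZMB at 0 reads. Of 11 tested, 3 rose (27.3%) and 1 fell (9.09%), and the largest part was TRAC at 296 to 352 CPM. GATA3, a T-cell factor, rose from 1.57, 0.942 and 0.911 CPM to 3.47, 3.48 and 2.51 CPM, with 1.47 ± 0.20 (adjusted p = 0.000349), and ZAP70, a receptor kinase of T cells that some B-cell leukemias also express, fell, with -0.30 ± 0.06 (adjusted p = 0.00567). CD28, a T-cell costimulator, was called higher at levels of 0.568, 1.17 and 0.425 CPM. The summed level of 19 stromal and epithelial markers was 54.8 to 58.6 CPM with NT and 53.7 to 63.0 CPM with sh2, with LUM, POSTN, KRT18, KRT19 and CDH5 at 0 reads. FN1 was at 1.22, 0.970 and 1.09 CPM with NT and 0.120, 0.316 and 0.331 CPM with sh2, without overlap. None of 6 tested passed in the fit of all 9 libraries by edgeR, by DESeq2 or at an unadjusted p under 0.05. With the NT and sh2 libraries alone, edgeR called 1 marker of this list lower. The part of other cells in the results above was not tested.

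The sh2 arm was set against the sh5 arm to see which of these values differ between the hairpins. NSD2 itself stood at 167, 142 and 210.2 CPM in the sh5 libraries and did not differ from the sh2 libraries by the test, with a sh2 minus sh5 log2 difference of 0.11 ± 0.18 (adjusted p = 0.794). Between the hairpins 1555 genes differed (9.06% of 17165 tested), 774 of them higher with sh2 (4.51%) and 781 lower (4.55%). The comparison of sh5 with NT gave 929 genes (5.41%), 597 higher (3.48%) and 332 lower (1.93%). It shares the NT libraries with the comparison of sh2, so values of both are given side by side without a test of their likeness. One sh5 library stood apart in stromal markers: FN1, a matrix protein of fibroblasts, was at 24.97, 0.242 and 0.656 CPM in sh5 replicates 1 to 3, COL1A2 at 8.25, 0.0269 and 0 CPM and COL3A1 at 7.26, 0.0269 and 0 CPM, and the summed level of the 19 stromal and epithelial markers reached 112.6 CPM there, against at most 63.0 CPM in the sh2 libraries. Its part in the differences between the hairpins was not tested beyond leaving that library out. The library also entered the fit of sh2 against NT, where leaving out single sh5 libraries was not tried. The sh2 to sh5 count was 99 without pairing, 904 without sh2 replicate 1, 823 without sh2 replicate 2, 591 without sh5 replicate 1 and 439 without sh5 replicate 2.

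Among the 20 genes of highest and lowest fold change, 8 differed between the hairpins by the direct test, against 9.06% of all genes tested. The 20 were chosen by their sh2 values, which are part of each difference, so the choice favours such calls. BLNK stood at 10.4, 13.8 and 6.33 CPM and DNTT at 11.7, 21.9 and 6.09 CPM in the sh5 libraries, and the sh2 minus sh5 log2 differences were 1.51 ± 0.11 (adjusted p = 3.24e-06) and 2.12 ± 0.14 (adjusted p = 0.000148). ITGA2B stood at 28.6, 25.5 and 32.8 CPM with sh5 and SPRY1 at 13.1, 7.43 and 13.6 CPM, and their differences were -1.86 ± 0.17 (adjusted p = 0.000925) and -2.05 ± 0.28 (adjusted p = 0.00795). For these 4 genes the sh2 and sh5 libraries did not overlap. DUSP16 gave -1.74 ± 0.19 (adjusted p = 0.000604), AIG1 -1.15 ± 0.23 (adjusted p = 0.0119), ZBTB46 1.04 ± 0.18 (adjusted p = 0.00201) and TNFRSF25 1.22 ± 0.22 (adjusted p = 0.00311).

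Of the 10 genes of highest fold change, all but DUSP6 and DNTT were called higher with sh5 as well, against 3.48% of all genes tested. The 10 were chosen with the same NT libraries, which favours such calls. SLC6A13 stood at 6.79, 3.53 and 5.65 CPM in the sh5 libraries, with a sh5 minus NT log2 fold change of 2.96 ± 0.23 beside 2.92 ± 0.23 for sh2. CABLES1 gave 2.61 ± 0.25 with sh5, GREM1 1.57 ± 0.14 and ANGPT1 1.58 ± 0.17. WNT8A had a value of 3.61 ± 0.37 with sh5, and the difference between the hairpins did not pass the test (-1.02 ± 0.30 (adjusted p = 0.122)). ZBTB46 gave 1.69 ± 0.21 (adjusted p = 0.000286) with sh5, TNFRSF25 1.10 ± 0.25 (adjusted p = 0.0213) and BLNK 0.56 ± 0.12 (adjusted p = 0.0164), each lower than with sh2 by the direct test above.

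The cholesterol list differed between the hairpins. With sh5, 1 of 27 genes was called, lower than NT (SREBF1, -0.29 ± 0.06 (adjusted p = 0.0176)), with a median of -0.02. In the direct comparison 15 of the 27 were lower with sh2 than with sh5 and 1 was higher (SCAP). MSMO1 stood at 248, 183 and 296 CPM in the sh5 libraries, with a sh2 minus sh5 log2 difference of -0.73 ± 0.08 (adjusted p = 0.000577). Of 30 glycolysis and hypoxia genes, 14 were lower with sh2 than with sh5, and none was higher by edgeR, by DESeq2 or at an unadjusted p under 0.05. VEGFA stood at 46.9, 34.2 and 51.8 CPM with sh5, and its difference was -0.92 ± 0.14 (adjusted p = 0.00864). Of the p53 targets 3 were higher and 1 was lower with sh2 than with sh5, and of the pre-B receptor and V(D)J genes 4 were higher. RAG1 was lower with sh5 than with NT (-0.44 ± 0.07 (adjusted p = 0.0038)) and higher with sh2 than with sh5, with a difference of 0.87 ± 0.07 (adjusted p = 1.53e-05).

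Arms with the same hairpin names were made in SEM, which carries the same fusion, and in RCH. A joint fit over the NT and sh2 arms of all 3 lines (18 libraries, 19573 genes) tested whether the response differed between lines. In that fit 457 genes were called in RS411 (2.33%), 2870 in SEM (14.7%) and 4710 in RCH (24.1%). The fit of RS411 alone, which included sh5, called 2495 genes (14.5%) for the same comparison. The joint fit left sh5 out and shared its estimate of spread over the lines. The cause of its lower RS411 count was not tested, and the counts do not measure how strongly each line responded. NSD2 had log2 fold changes of -0.74 ± 0.17 in RS411, -0.998 ± 0.17 in SEM and -0.78 ± 0.17 in RCH, and the differences of RS411 from SEM (0.25 ± 0.23 (adjusted p = 0.756)) and from RCH (0.03 ± 0.23 (adjusted p = 0.978)) did not pass the test. The response of RS411 differed from that of SEM for 495 genes (2.53%), higher in RS411 for 1.49% and lower for 1.04% of genes tested. It differed from that of RCH for 1985 genes (10.1%), higher for 4.83% and lower for 5.31%. Against SEM the count was 230, 234, 214 and 253 without NT replicate 1, NT replicate 2, sh2 replicate 1 and sh2 replicate 2 of RS411. Against RCH it was 985, 790 and 1207 without NT replicates 1, 2 and 3 and 926, 841 and 1238 without sh2 replicates 1, 2 and 3. Without pairing the counts were 277 and 591.

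**Figure D5:**
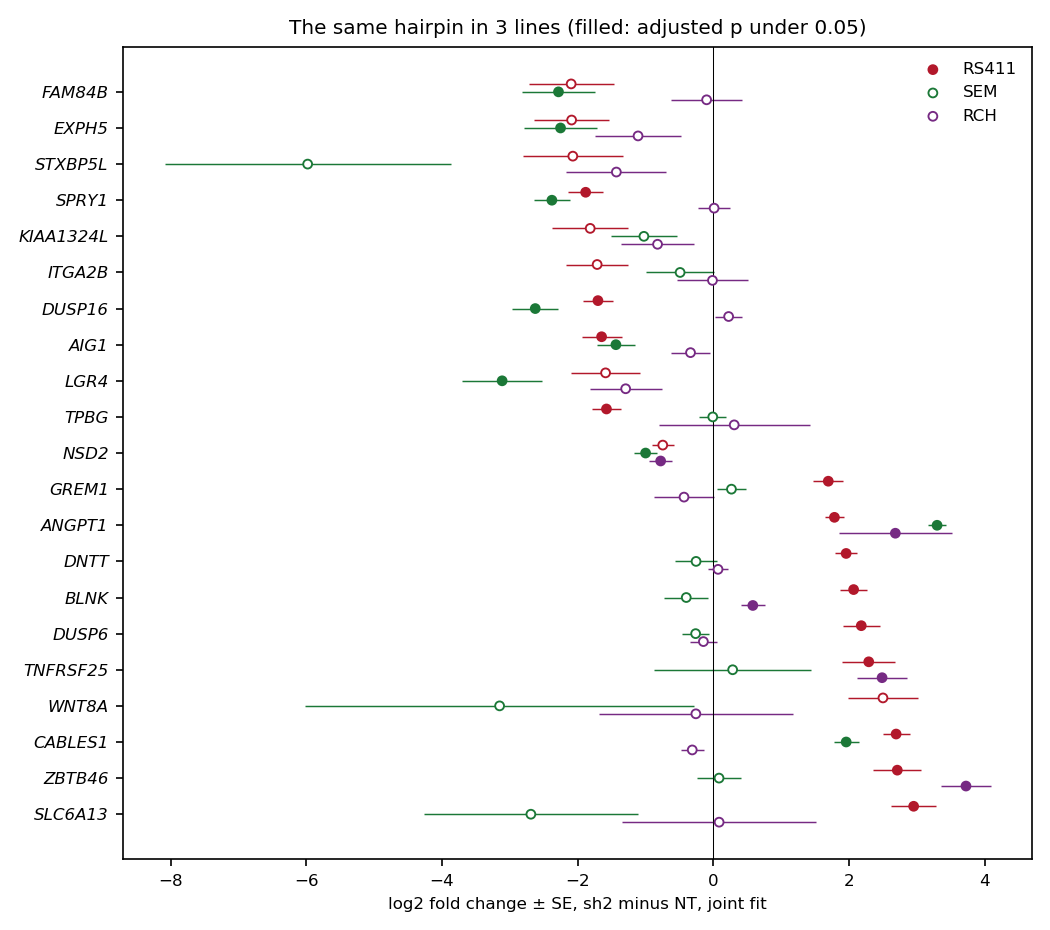
Log2 fold change of sh2 over NT with its standard error (horizontal axis) for NSD2 and the 20 genes of highest and lowest fold change in RS411, in RS411 (red), SEM (green) and RCH (purple), from the joint fit and filled where the adjusted p is under 0.05. BLNK, DNTT, DUSP6 and GREM1 have their highest values in RS411, ANGPT1 has its highest in SEM, and SPRY1 and DUSP16 lie below 0 in RS411 and SEM and near 0 in RCH.

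DUSP6, BLNK, DNTT and GREM1 had responses in RS411 that differed from both other lines. DNTT had a log2 fold change of 1.96 ± 0.16 in RS411, -0.25 ± 0.31 in SEM and 0.07 ± 0.14 in RCH. Its level with NT differed widely, with a mean of 1.17 CPM in SEM and 1689.9 CPM in RCH. DUSP6 had 2.18 ± 0.27 in RS411, -0.26 ± 0.20 in SEM and -0.15 ± 0.20 in RCH, and here too the NT level was much higher in the other lines, at 84.3 and 64.5 CPM. BLNK had -0.40 ± 0.33 in SEM and 0.58 ± 0.18 in RCH beside 2.07 ± 0.20 in RS411.

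CABLES1 was called higher in RS411 and SEM and differed from RCH, with 2.70 ± 0.20, 1.96 ± 0.18 and -0.31 ± 0.17 in RS411, SEM and RCH. SPRY1 gave -1.88 ± 0.26, -2.38 ± 0.26 and 0.01 ± 0.24, and DUSP16 -1.70 ± 0.22, -2.63 ± 0.34 and 0.23 ± 0.20, each differing between RS411 and RCH. ZBTB46 and TNFRSF25 were called higher in RS411 and RCH, with 3.73 ± 0.36 and 2.49 ± 0.37 in RCH. ANGPT1 was called higher in RS411, with 1.79 ± 0.14, and more so in SEM, with 3.30 ± 0.14, where its mean level went from 10.99 to 109 CPM. In RCH it was nearly absent, with a mean of 0.108 CPM with sh2.

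Of the cholesterol list, 6 of 27 genes were called lower in RS411 in the joint fit (background 0.996%), 7 in SEM (8.32%) and 4 in RCH (10.7%), with medians of -0.46, -0.26 and -0.07. By edgeR the response differed from SEM for 0 of the 27 genes (7 at an unadjusted p under 0.05) and from RCH for 6, all 6 lower in RS411. Of the glycolysis and hypoxia list, 2 of 32 genes were called lower and 1 higher in RS411, 4 and 2 in SEM and 10 and 7 in RCH. The response in RS411 was lower than in RCH for 3 of them and differed from SEM for none by edgeR (5 at an unadjusted p under 0.05). Of the class II antigen presentation genes, 1 of 17 was called higher in RS411 in that fit (background 1.34%), 12 in SEM (6.35%) and 15 in RCH (13.3%), and the response was lower in RS411 than in SEM for 6 and than in RCH for 14. The fit of RS411 alone called 21 of 27 cholesterol genes and 13 of 30 glycolysis and hypoxia genes lower. It called 5 of 16 class II genes higher.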

How the data were processed

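RNA was extracted with RNeasy kits and sequenced as 54 base reads on a GAIIx from TruSeq stranded total RNA libraries depleted of ribosomal RNA, per the labels' protocols. The values deposited by the authors are raw counts of reads per gene, made with Trimmomatic, STAR and featureCounts on hg19 per the submitters' processing notes. No version of these tools and no strand setting of the counting was given in the sources used here, so a gene and its antisense partner may share reads. In every count table, 27 gene names that had turned into dates were left out, holding 0.214% of reads in RS411.

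Counts of all 9 RS411 libraries were fitted with edgeR 4.0.16 (quasi-likelihood, filterByExpr, TMM factors, robust dispersions) with arm and replicate number as terms, leaving 4 residual degrees of freedom, in R 4.3.3. Adjusted p values are Benjamini-Hochberg values over 17165 genes, called under 0.05, and the joint fit used 18 libraries with replicate within line as the block. The replicate number was kept as a block because deviations from the group means correlated within every same-numbered pair of RS411, at 0.240 to 0.252 for NT and sh2. The link rests on this check and not on the labels. In RCH the correlations for NT and sh2 ran from -0.069 to 0.168, so the numbers did not pair those libraries. The joint fit still used the numbers as a block in RCH. Without the block in any line, 591 genes differed between RS411 and RCH. DESeq2 1.42.0, other scalings and filters, thinning to 27767490 reads, 2 arms alone, no block and each library left out were tried. In pair ratios 0.5 CPM was added. On simulated data for this comparison (16862 genes, 200 changed), 100% of 2-fold and 92% of 1.5-fold changes were recovered and 4.95% of calls were unchanged genes. The changed genes were all well counted, the change was equal in every sh2 library, and a replicate effect was built in. Recovery of changes at low level, or uneven between replicates, was not tested.

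Genes were named by rule: NSD2, the 10 highest and 10 lowest called fold changes with at least 5 CPM in the higher arm, no overlap of arms and 1 sign in all pairs, leaving out clone, antisense, small RNA and pseudogene names, the 5 most abundant such genes, and up to 2 called genes per list, with other list members as examples. The comparison, the 32 lists and these rules were chosen with earlier results of these data known. Promoter sequences are RefSeq GRCh38.p14 windows matched by symbol. They are not in the build of the counts. The sequences printed are the 250 bases before the most upstream start. In the motif counts a gene matched if any of its windows did. All genes here means 27305 genes with 35116 windows, whether or not they were tested for expression. Some members of the lists were counted with their list and are not reported here by name.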

Additional observations from a re-analysis of the deposited data

Results flagged for a closer look

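The response to sh2 differed between RS411 and another line, by the joint edgeR test at an adjusted p under 0.05, for 28 of the 76 genes named by rule (16 from SEM and 21 from RCH). All but NSD2 were chosen by their change in RS411, which is part of each difference. Each value is the RS411 log2 fold change minus that of the other line. Differences from SEM and from RCH, in that order, were found for 9 genes. DUSP6 differed by 2.44 and 2.33, BLNK by 2.47 and 1.49 and DNTT by 2.21 and 1.89. GREM1 differed by 1.43 and 2.13, ZNF521 by 3.73 and -2.46, and TP53INP1 by 2.23 and 1.94. TERT differed by -0.82 and -0.72, FOSL2 by -0.82 and 0.70 and HLA-DQA1 by -0.92 and -1.09. Against SEM alone, ZBTB46 differed by 2.63, ANGPT1 by -1.51, TPBG by -1.57, JARID2 by 0.68, TAP1 by -0.61, NLRC5 by -0.94 and GATA3 by 1.86. Against RCH alone, CABLES1 differed by 3.01, SPRY1 by -1.89, DUSP16 by -1.93, FCRLA by -2.81, ABCC1 by 0.41 and BCL2 by 1.18. In the same way, MSMO1 differed by -0.80, OAS3 by -0.67, ASNS by -1.52, SYVN1 by -0.67, CTSS by -0.62 and SEMA4A by -1.43. Where a gene passed against 1 line only, whether the 2 differences are unequal was not tested. Groups of 3 libraries were too small for a check of single outlying libraries.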

How the results depend on the processing

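None of the 76 genes named by rule changed direction under any setting that was run for it. The split of calls turned with upper-quartile scaling, with at least 1 CPM in 3 libraries and with the NT and sh2 libraries alone. It also turned with a further 2-fold limit. The medians of the ERK, B-lineage, KMT2A-fusion and class II lists changed sign with upper-quartile scaling. Medians of further lists near 0 changed sign under some setting. For sh2 against NT the count of 2495 genes was 286 without the replicate block, 1300 with the NT and sh2 libraries alone, 66 with those alone and no block (a setting chosen after seeing the data), 523 with a further 2-fold limit, 929 at an adjusted p under 0.01 and 731 to 3440 with 1 library left out. DESeq2 called 2237 genes and thinned counts 2067. Upper-quartile scaling, which moved the median of all genes by -0.05, called 758 higher and 1421 lower (34.8% of its calls were higher, against 1323 of 2495). NSD2 passed the threshold with DESeq2 (-0.73), with at least 1 CPM in 3 libraries (-0.77), and without replicate 3 of either arm, over a range of -0.93 to -0.57 with 1 library left out. Without the block its value was -0.71. Pairing changed the other counts too. Without the block sh2 against sh5 gave 99 genes, RS411 against SEM 277, RS411 against RCH 591 and sh5 against NT 82. With 1 library left out these were 439 to 2288, 214 to 355 and 790 to 1238 for the first 3. Without the low-count filter RS411 against SEM gave 1166, RS411 against RCH 3134 and sh5 against NT 1728. The cause of these changes was not tested. Of 75 named genes other than NSD2, 57 were not called without the block and 7 were called in every setting, namely SLC6A13, ZBTB46, CABLES1, TNFRSF25, ANGPT1, ITGA2B and STAT5A.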

Other observations

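Further genes met the conditions of the 10 highest and lowest but lay beyond them in rank, and the following were chosen after their values were seen. VAV3, an exchange factor downstream of antigen receptors, stood at 51.8, 44.6 and 46.6 CPM with NT and 124, 121 and 86.5 CPM with sh2, with a log2 fold change of 1.20 ± 0.10 (adjusted p = 0.000328). CD84, a receptor of the SLAM family, went from 10.03, 6.96 and 8.31 CPM to 22.9, 19.5 and 13.5 CPM, with 1.13 ± 0.12 (adjusted p = 0.000176). MMP14, a membrane metalloproteinase, gave 1.24 ± 0.08 (adjusted p = 8.53e-07), and MDK, the growth factor midkine, gave 1.13 ± 0.11 (adjusted p = 2.71e-05). All 4 were higher in every sh2 library than in any NT library, as the conditions required.

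Among genes that fell, RORB, an orphan nuclear receptor, went from 33.3, 32.96 and 35.6 CPM to 11.3, 13.98 and 20.3 CPM, with -1.19 ± 0.14 (adjusted p = 0.00157), and stood at 33.1, 35.2 and 36.3 CPM with sh5. AKR1C3, a reductase of steroids and prostaglandins, went from 12.8, 13.2 and 12.3 CPM to 4.64, 3.51 and 6.12 CPM, with -1.45 ± 0.14 (adjusted p = 2.18e-05). GLCCI1, a glucocorticoid-induced transcript, went from 12.01, 9.87 and 11.01 CPM to 3.07, 2.72 and 6.78 CPM, with -1.46 ± 0.26 (adjusted p = 0.0142), and did not pass the test with sh5 (0.09 ± 0.24 (adjusted p = 0.872)). SESN3, a relative of the p53 target SESN1, fell from 9.89, 11.6 and 9.62 CPM to 3.13, 3.86 and 6.22 CPM, with -1.28 ± 0.17 (adjusted p = 0.000646), while SESN1 rose.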
